A study of Saccharomyces cerevisiae with 66 samples.

Results

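The promoters of the genes for cytosolic ribosomal proteins (RPs) were followed in 21 tables of DNA methylation made by MTAC, a method in which the GpC methyltransferase M.CviPI is fused to the repressor LacI and brought to an array of LacO sites. Each table lists nucleosome-depleted regions (NDRs), the open stretches of DNA found at most promoters. A member was an NDR whose start lay 0 to 1000 bases upstream of the start codon of a gene named RPL or RPS and a digit, or of RPP0, RPP1A, RPP1B, RPP2A or RPP2B. This rule used positions alone and took 142 of 4828 NDRs, on 15 of the 16 nuclear chromosomes.

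RPs are the protein parts of the large subunit (RPL genes) and the small subunit (RPS genes) of the ribosome, and the RPP genes encode the acidic stalk of the large subunit. In budding yeast most of them are kept as a pair of gene copies, A and B, left by an old duplication of the genome. Their promoters are known for wide, strongly nucleosome-depleted DNA, are mostly bound by Rap1 together with Fhl1 and Ifh1, and are transcribed heavily in growing cells.

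All strains were haploid Saccharomyces cerevisiae with the marker alleles ade2-1, can1-100, ura3-1, trp1-1 and his3-11,15 and a mutant leu2 allele, and carried LacI-SV40NLS-M.CviPI at ADH1 under a lexO promoter driven by the estradiol-responsive activator LexA-ERHBD-VP16AD, with LEU2 as marker. Targeted strains also had a LacO array with HIS3 at the viewpoint, the named gene, and control strains (0X) had none, so in them the enzyme was free. With 256 copies of LacO and 2 h of 2 nM β-estradiol, the viewpoints were YBP2, PUS2, CDC43, PCL10 and OLE1 on chromosome VII, LSM4 and SHC1 on V, VHR1 on IX, and MNR2, MBR1 and LHS1 on XI, and the labels give 1 control (0X, 2 h) for these 11. The array at YBP2 was also used with 4, 8, 16 and 256 copies after 1 h, with a control of 1 h. TRP2 (256X, 2 h) was studied in medium without methionine (-met) and with it (+met), each with its own control. An array at TAF2, next to the mating-type locus, was used in MATalpha and MATa strains in galactose (G) and glucose (D), each with its own control. It had 256 copies, and the labels give 2 h. These strains and their controls carried GAL10pr-HO::URA3, whose endonuclease is made in galactose and starts mating-type switching. By the paper's methods, cells for switching grew in raffinose, had galactose for 2 h and then glucose for 1 h, with β-estradiol throughout. Galactose here thus names the treatment and not the sugar at harvest. All other strains were MATa. Every group had 2 libraries.

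Methylated DNA was recovered with an antibody to 5-methylcytosine and sequenced. The value analysed is the base mean, the authors' mean of the normalized read counts of an NDR over the 4 libraries of a table, 2 targeted and 2 control. It holds no value per library, so there is no replicate spread and no test, and every result is a description. Read depth per library cannot be read from these values. The paper's supplement lists uniquely mapped reads for each library, which were not used here. By that list the MATalpha libraries and their controls mostly had fewer reads than those of MATa. A difference present only in the targeted libraries is diluted by the controls in the same mean. The base mean is also not per length, since the tables give the start of an NDR and not its end. The paper's supplement lists NDR coordinates, which were not used, so no level was corrected for NDR width. The summed base mean was 168457 to 477468 per table, and the median NDR had 15.7 to 49.5. The methionine and galactose genes served as a check of the labels. In TRP2 -met over +met, 3 of 25 methionine gene NDRs were 1.5-fold higher and 0 lower, against 1.6% and 1.24% of all NDRs. In galactose over glucose, 0 of 6 galactose gene NDRs passed that fold in the MATa strains (5.08% of all NDRs were higher and 4.15% lower), so there the check showed nothing. In the MATalpha strains 2 of 6 were higher and 1 lower, against 1.75% and 2.15% of all NDRs.

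The 142 members served 129 of 137 RP genes, namely 70 of 76 RPL genes, 55 of 56 RPS genes and 4 of 5 RPP genes. RPL14A, RPL19A, RPL19B, RPL26B, RPL31A, RPL34B, RPP2B and RPS6A had no NDR start in the window. The members' starts lay 11 to 984 bases from the start codon, with a median of 352. RPS18A had the NDR nearest inside the limit, at 984 bases, with base means of 76.8 in the TRP2 -met table and 101 in the YBP2 table at 2 h. Just outside, at 1014 bases, lay an NDR of RPP1B (81.0 in TRP2 -met and 122 in YBP2 at 2 h) and one of RPL8B (29.6 and 52.8). Of the 142 members, 77 were also upstream of a gene that encodes no RP, and their signal cannot be assigned to either gene. Only protein-coding genes were considered in that count. Divergent promoters shared by a pair of RP genes gave 5 members, counted once each, RPS16B/RPL13A, RPL24A/RPL30, RPS22A/RPL39, RPL13B/RPS16A and RPS15/RPP2A.

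M.CviPI methylates cytosine in GC dinucleotides, so the letters of a promoter set how many bases it can mark. The 6 members below are the 3 with the highest level, the one with the lowest, and 2 named later for their ratios (RPS1A and RPL4A). Each line gives the first 200 bases of the NDR on the top strand of R64, with every GC in capitals.
RPL15B, chrXIII:510666-510865: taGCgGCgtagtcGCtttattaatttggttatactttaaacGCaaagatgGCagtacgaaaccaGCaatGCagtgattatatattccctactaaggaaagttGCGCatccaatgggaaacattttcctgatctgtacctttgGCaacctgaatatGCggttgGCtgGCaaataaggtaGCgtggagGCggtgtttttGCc
RPL31B, chrXII:931843-932042: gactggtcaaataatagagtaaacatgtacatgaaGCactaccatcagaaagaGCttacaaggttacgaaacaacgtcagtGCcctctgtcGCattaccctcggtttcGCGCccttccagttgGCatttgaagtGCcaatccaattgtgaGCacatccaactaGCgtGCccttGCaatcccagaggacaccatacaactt
RPL24B, chrVII:788207-788406: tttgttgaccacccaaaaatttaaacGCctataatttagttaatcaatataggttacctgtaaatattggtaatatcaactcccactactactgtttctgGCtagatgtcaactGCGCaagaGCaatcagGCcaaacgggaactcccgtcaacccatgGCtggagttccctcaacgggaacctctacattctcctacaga
RPL40B, chrXI:619452-619651: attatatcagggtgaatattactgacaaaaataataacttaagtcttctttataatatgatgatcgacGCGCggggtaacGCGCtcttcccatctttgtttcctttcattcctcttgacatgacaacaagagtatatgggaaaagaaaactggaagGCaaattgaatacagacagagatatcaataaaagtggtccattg
RPS1A, chrXII:1018951-1019150: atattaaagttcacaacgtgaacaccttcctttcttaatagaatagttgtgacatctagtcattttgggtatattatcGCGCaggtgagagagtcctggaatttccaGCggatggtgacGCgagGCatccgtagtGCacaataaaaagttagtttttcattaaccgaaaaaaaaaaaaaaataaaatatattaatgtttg
RPL4A, chrII:299913-300112: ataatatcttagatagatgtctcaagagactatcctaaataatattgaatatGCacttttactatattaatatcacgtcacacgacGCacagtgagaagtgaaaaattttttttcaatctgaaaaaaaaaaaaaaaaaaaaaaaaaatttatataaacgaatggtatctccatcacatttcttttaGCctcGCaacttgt

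Between these windows the number of GC sites differed, with 16 for RPL15B, 12 for RPL31B and 7 for RPL24B, against 5 for RPL40B, 6 for RPS1A and 4 for RPL4A. Over all members the window held a median of 7 GC sites (range 2 to 20), and over all 4828 NDRs it also held 7. Spearman's correlation of the number of GC sites with the median base mean was 0.43 over the 142 members and 0.47 over all NDRs, given as a description over sites that share their libraries.

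RP promoters lay high among the NDRs of every table. A percentile here is the rank of an NDR's base mean among all NDRs of its table. The median member stood at percentile 64.7 in the lowest table (MATa in glucose) and 73.2 in the highest (MATalpha in glucose), and at 71.3 in the middle one. For 74 NDRs of genes for mitochondrial RPs, which build the separate ribosome inside mitochondria, the same median was 31.9 to 38.9. The 96 NDRs of ribosome biogenesis genes, whose products assemble ribosomes in the nucleolus, had medians of 40.8 to 48.2, and the 33 of translation factor genes 42.8 to 53.5. The 7 NDRs of RP regulator genes (such as RAP1 and IFH1) had 47.5 to 59.2. Other lists were as high as the members, with medians of 64.8 to 79.9 for 7 NDRs of galactose genes and of 60.4 to 73.8 for 31 NDRs of methionine genes. Divided by the GC sites of the 200-base window, the members' medians were 62.1 to 70.9 and those of the mitochondrial RP genes 34.3 to 40.3. The 3 roles were near each other, at a middle percentile of 71.8 for RPL, 72.3 for RPS and 73.7 for the 4 RPP members.

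**Figure D1:**
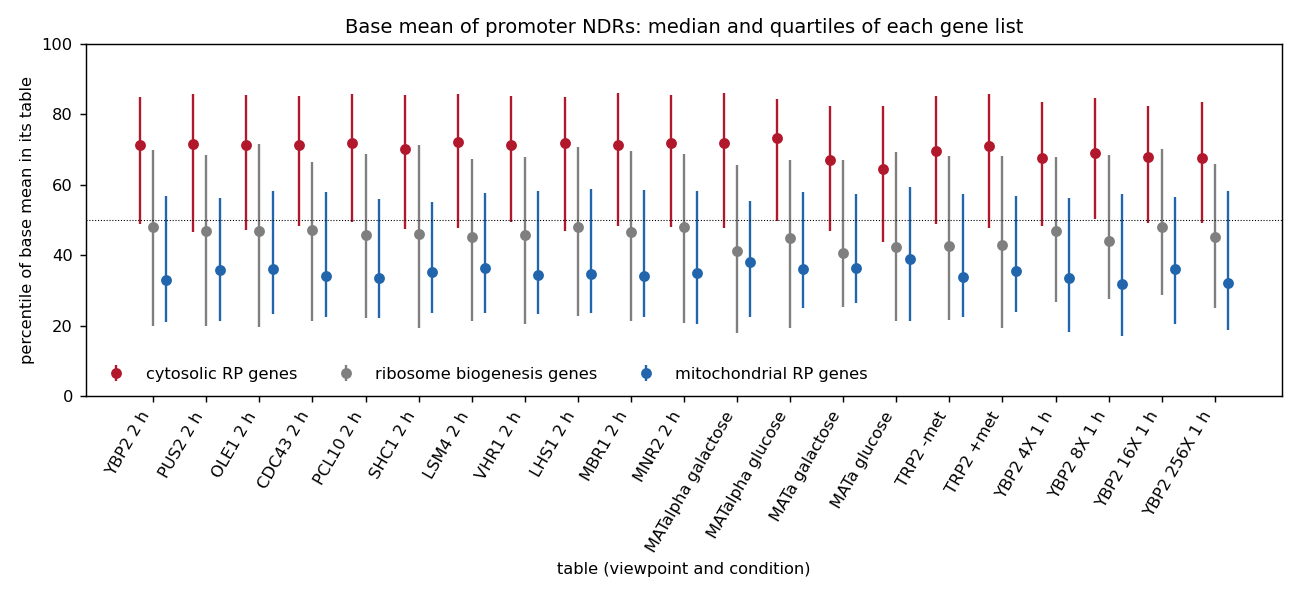
Median (point) and quartiles (line) of the percentile of base mean in each of the 21 tables (horizontal axis), for NDRs of 142 cytosolic RP, 96 ribosome biogenesis and 74 mitochondrial RP gene promoters, with percentile on the vertical axis. In every table the cytosolic RP median, 64.7 to 73.2, is above the dotted line at 50 and the mitochondrial RP median is below it.

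The same order held where the number of GC sites was alike. Among NDRs with 0 to 6 sites the 58 members had a median percentile of 56.2, the 33 mitochondrial RP NDRs 29.0 and all 2138 NDRs 32.8. With 7 or 8 sites the values were 71.3 for 36 members, 35.4 for 15 mitochondrial RP NDRs and 51.2 for all 1096. With 9 to 29 sites they were 81.4 for 48 members, 56.5 for 26 mitochondrial RP NDRs and 71.5 for all 1594. Of the members, 86 (60.6%) were above the median in all 21 tables, against 35.9% of all NDRs, and 14 (9.86%) were in the top 10% of every table, against 5.70%. At the other end, 21 members (14.8%) were below the median in all tables, against 34.01% of all NDRs.

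The highest member was the NDR of RPL15B, a large-subunit protein gene, with a base mean of 206 in its lowest table, 774 in the middle one and 977 in its highest, at a median percentile of 99.5. RPL31B had 169, 554 and 684, and RPL24B (chrVII:788207) 178, 499 and 643. RPL3, which encodes a protein near the peptidyl transferase centre, had 122, 481 and 671, and RPS0A 131, 444 and 601. These 5 stayed at or above percentile 96.1 in every table. The lowest member, an NDR 702 bases upstream of RPL40B that is also upstream of MLP1, had 4.49, 8.02 and 12.3. RPS20 (4.56, 12.5 and 21.2), RPS14B (3.61, 11.6 and 20.1) and an NDR of RPS21B (4.25, 14.4 and 21.1) were also among the 5 lowest. The RPS20 window holds 2 GC sites, and per site its median percentile was 55.6 in place of 12.9.

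The 2 copies of a duplicated RP gene often differed. For 52 pairs with a member at both genes, the NDR nearest to each start codon was compared, and the median difference between A and B was 23.6 percentile points. In 43 of the 52 pairs 1 copy was above the other in all 21 tables, the A copy in 21 pairs and the B copy in 22. The RPL13 and RPS16 pairs rest on the same 2 divergent NDRs, which count in both. Unrelated NDR pairs were not compared, so whether paralogs differ more or less than other NDRs was not tested. Tables that share libraries also do not give separate evidence of a fixed order. RPS14A, nearest its start codon, was at percentile 87.2 with 13 GC sites, and RPS14B at 14.2 with 3. RPS18A was at 91.0 and RPS18B at 26.6, with 12 and 8 sites. In the other direction RPS28B was at 87.5 and RPS28A at 15.7, with 8 and 4 sites, and RPL36B at 83.1 against 28.5 for RPL36A, with 14 and 7. RPL22A, at 76.9, and RPL22B, at 29.1, had 3 and 4 sites, so a copy with fewer sites could be the higher one. Some NDRs of these pairs are also upstream of a gene that encodes no RP. Among them are those of RPS14B (SOP4), RPS18A (UTP6) and RPL22B (MOB2 and MIL1), whose signal cannot be assigned to the RP copy alone.

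**Figure D2:**
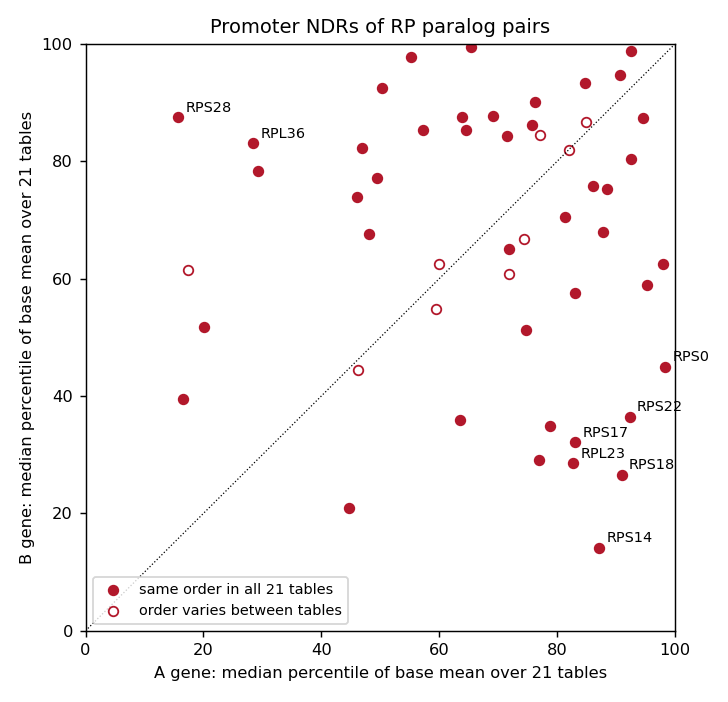
Median percentile of base mean over the 21 tables for the B copy (vertical axis) against the A copy (horizontal axis) of 52 RP gene pairs, 1 point a pair. Filled points are the 43 pairs with the same order in all tables, the dotted line marks equal percentiles, and pairs more than 50 points apart are named, among them RPS14 and RPS28.

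Rap1 binds most RP promoters, and a core of its site, ACCCNNACA, was searched on both strands in the 500 bases upstream of each start codon. It was found at 54 of 137 RP genes (39.4%), at 2 of 67 mitochondrial RP genes (2.99%) and at 329 of all 6002 protein-coding genes (5.48%). At least 2 matches were found at 8 RP genes (5.84%), against 0.300% of all genes. Members at genes with a match (55) had a median percentile of 67.9, and those with none (87) had 74.3. A match is a match of letters and not a measured site.

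How an RP promoter near a viewpoint behaved was read from the 11 viewpoints at 2 h. Each table was scaled to a common median, and an NDR's base mean was set over its median in the other 10 tables, as a log2 ratio centred at 0. By the labels, the same control libraries are in all 11 tables, though a control without methionine also exists for TRP2. Members within 30 kb of the viewpoint, which numbered 10 values over 7 genes, were above 0 in 10 of 10, as were 93.3% of 255 values of other NDRs within 30 kb. Past 1.5-fold were 4 of the 10, against 38.0% of those others.

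RPS8B, a small-subunit protein gene, lay 9.78 kb from SHC1, and its NDR is also upstream of AST2. Its scaled base mean was 76.3 in the SHC1 table, against a lowest of 25.8, a median of 30.7 and a highest of 36.2 in the other 10, a log2 ratio of 1.29 (2.44-fold). RPL9A, 13.7 kb from CDC43, had 80.6 in the CDC43 table, against 32.8, 37.0 and 47.6 in the others, a log2 ratio of 1.10. The highest of those others, 47.6, was the PCL10 table, whose viewpoint is 27.9 kb from RPL9A. RPS24B, 18.5 kb from VHR1, had 265 in the VHR1 table, against 138, 149 and 167, a log2 ratio of 0.84. RPL1B, 2.04 kb from PCL10, had 55.7 there, against 31.3, 33.6 and 40.8, a log2 ratio of 0.70. Its NDR is also upstream of MRM2. In these 4 cases the viewpoint's own table was above all 10 others.

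RPL23B, 8.76 kb from LSM4, had 35.4 in that table, against 21.99, 25.03 and 30.8 in the others, a log2 ratio of 0.47. RPS2, 20.8 kb from PCL10, had 96.5, against 64.8, 72.0 and 86.6, a log2 ratio of 0.41. The NDR of RPL23B is also upstream of SLX8, and that of RPS2 is also upstream of MON1. RPL7A, 24.98 kb from YBP2 and 18.2 kb from PUS2, had 108 in the YBP2 table and 111 in the PUS2 table. Against a median of 95.7 over the other 10 tables, these were log2 ratios of 0.18 and 0.21. The remaining values were 0.34 for RPL9A in the PCL10 table and 0.22 for RPS8B in the LSM4 table.

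Within 10 kb the 3 member values had a median log2 ratio of 0.70, and the 89 values of other NDRs there had 0.84. From 10 to 30 kb the 7 member values had 0.34, against 0.30 for 166 values of other NDRs. From 30 to 100 kb the 19 member values had a median of 0.13 and 17 of them were above 0, against 0.09 for 598 other values. From 100 to 200 kb the medians were 0.05 for 24 member values and 0.03 for other NDRs. Beyond 200 kb they were -0.02 for 40 member values and 0.01 for others. In members and in other NDRs alike the median was lower in each more distant bin.

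**Figure D3:**
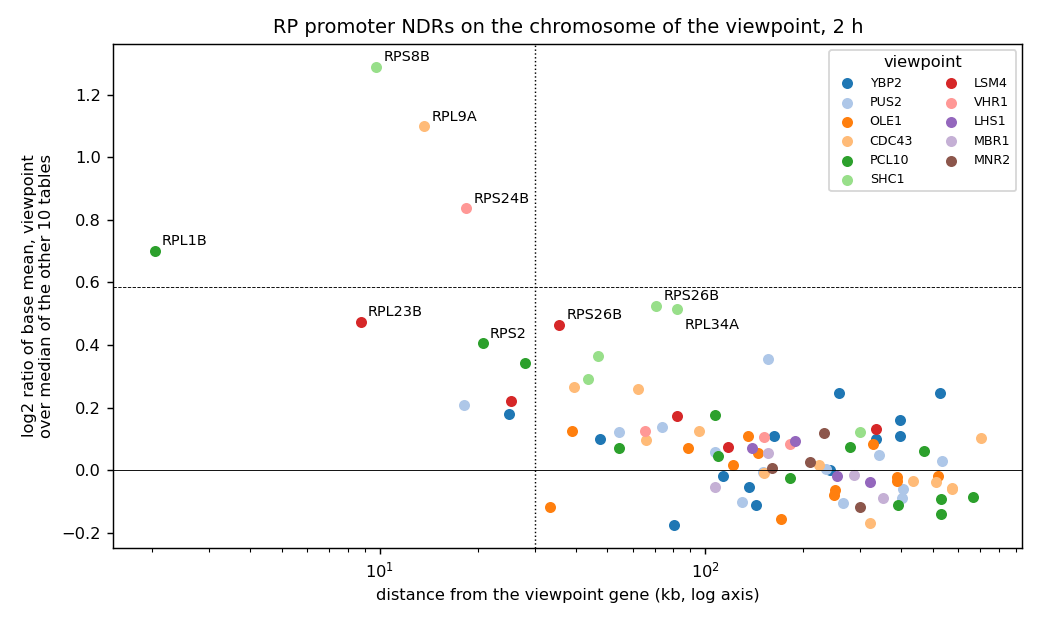
Log2 ratio of the base mean in a viewpoint's table over the median of the other 10 tables (vertical axis) against the distance in kb from the viewpoint gene (horizontal, log axis), for each RP promoter NDR on the viewpoint's chromosome, coloured by viewpoint. The dotted line is 30 kb and the dashed line 1.5-fold. RPS8B, RPL9A, RPS24B and RPL1B, all within 30 kb, are above 1.5-fold.

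Beyond 30 kb the highest ratios on a viewpoint's own chromosome were on chromosome V. RPS26B, which encodes a small-subunit protein, had 608 in the SHC1 table and 589 in the LSM4 table, at 70.7 and 35.6 kb, against a median of 424 over the other 10 tables. The log2 ratios were 0.53 and 0.46, and this NDR is also upstream of COM2. RPL34A, 82.3 kb from SHC1, had 123 in that table, against 77.7, 86.3 and 95.1 in the others, a log2 ratio of 0.51. RPS24A, 46.8 kb from SHC1, had 170 against 120, 132 and 150, a log2 ratio of 0.36. For SHC1 the median over the 5 members of its chromosome beyond 30 kb was 0.36, against 0.09 over all 211 NDRs there and 0.01 over the 134 members on other chromosomes. This was the widest such gap of the 11 viewpoints, and the members' median was above that of all NDRs of the chromosome for 5 viewpoints and below it for 6. Apart from RPL12A, at 299 kb with 0.12, the SHC1 members lay 43.8 to 82.3 kb away. The 211 NDRs were not matched to them for distance. By the paper SHC1 was assayed without methionine, and an effect of the medium on its ratios was not tested. On chromosome VII, RPL9A had a log2 ratio of 0.36 in the PUS2 table at 156 kb, with 47.6 against 32.8, 37.0 and 80.6 in the others, so that the CDC43 table was higher. Single members on other chromosomes than the viewpoint's reached ratios in the same range. RPL8B on XII had 0.46 in the CDC43 table, RPS21B (chrX:157970) 0.45 in the VHR1 table and RPL9B on XIV 0.42 in the SHC1 table.

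Few members beyond 30 kb reached 1.5-fold in any of these 11 tables, as few NDRs of any kind did. The share of all NDRs that did so was 0.022% for YBP2, 0.0221% for PUS2, 0% for OLE1, 0.154% for CDC43, 0.0658% for PCL10, 0.111% for SHC1, 0% for LSM4, 0.0439% for VHR1, 0.0882% for LHS1, 0.0439% for MBR1 and 0.284% for MNR2. Of the 137 to 141 members tested per table, 1 passed, RPS20 in the MNR2 table (log2 ratio 0.60). Its raw base mean is among the lowest of the members, and its NDR is also upstream of DUR3. The members' median was -0.03 to 0.02 over the 11 tables. The median SD of a member over the 11 tables was 0.096 on the log2 scale, over 140 members, and that of all 4385 NDRs with a base mean of at least 10 in each was 0.116.

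Whether RP promoters differ with mating type was asked by setting MATalpha tables over MATa tables. Here and below a ratio is log2 of base mean plus 1 in one table over the other, for NDRs with at least 10 in both, centred on the median of all NDRs beyond 30 kb of the viewpoint. MATalpha and MATa name the strain at the start, and by the study's design cultures in galactose held switched and unswitched cells, so only the glucose tables compare cells of 1 mating type each. RP promoters were higher in the MATalpha tables than in the MATa tables in both sugars. In glucose the median of 116 members was 0.28, and 36 were at least 1.5-fold higher and 4 lower (15.1% and 18.3% of all 3148 NDRs). Those 36 were 31.0% of the members tested. In galactose the median was 0.18, with 23 higher and 6 lower of 116 (16.1% and 19% of all 3068 NDRs), and 23 is 19.8%. The RPL and RPS members had medians of 0.28 and 0.26 in glucose and of 0.19 and 0.22 in galactose. Mitochondrial RP genes had -0.04 over 40 NDRs in glucose and -0.02 over 41 in galactose, and ribosome biogenesis genes 0.02 and -0.09. Levels in single tables, each centred on its median NDR, were also taken for the 111 members with at least 10 in every table. Their median log2 level was 0.52 in MATalpha and 0.01 in MATa in glucose, and 0.55 and 0.14 in galactose. The tables of the other viewpoints, all of MATa strains, lay between, from 0.27 (YBP2 256X, 1 h) to 0.44 (TRP2 +met).

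The members' median lay above 0 in both sugars, and the 2 comparisons have no library in common. Of 112 members measured in both, 62 (55.4%) were above 0 in both, against 40.7% of 2912 NDRs, and 19 (16.96%) were 1.5-fold higher in both, against 9.62%. In both sugars 2 members (1.79%) were lower, RPL8B and RPS24A, against 12.3% of all NDRs. Pearson's r between the sugars was 0.69 over the members and 0.79 over all NDRs, a description over sites measured in the same libraries. Among members with a base mean of at least 50 in both tables, the median was 0.12 in each sugar. Of these, 7 were higher and 1 lower of 48 in glucose, and 4 higher and 4 lower of 53 in galactose. The shares of all NDRs given above are for a minimum of 10, so the counts at 50 have no background. Mating type cannot be told apart from other differences between the 2 strain backgrounds or between their libraries.

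RPS11A, a small-subunit protein gene, had base means of 42.5 in the MATalpha glucose table, against 18.9 in the MATa glucose table, a log2 ratio of 1.39. In galactose it had 38.3 in MATalpha and 36.3 in MATa, a log2 ratio of 0.84 once the lower median of the MATalpha table was allowed for. RPS0A had 415 in MATalpha and 212 in MATa in glucose, and 382 and 283 in galactose, with log2 ratios of 1.23 and 1.197. The divergent promoter of RPS16B and RPL13A had 64.1 and 35.0 in glucose and 70.3 and 45.7 in galactose, with log2 ratios of 1.11 and 1.3799. RPS26A had a log2 ratio of 1.26 in glucose, from 35.2 in MATalpha and 17.03 in MATa, and RPL25 had 0.98 in galactose, from 62.3 and 53.5. These members were higher in MATalpha in each sugar named.

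RPL8B, 13 bases from its start codon, went the other way. Its base mean was 31.3 in MATalpha and 99.9 in MATa in glucose, and 31.7 in MATalpha and 102 in MATa in galactose, with log2 ratios of -1.38 and -0.89. RPS24A had 54.5 and 119 in glucose and 53.9 and 153 in galactose, with -0.85 and -0.72. In galactose RPS1A was lowest, with 14.1 in MATalpha and 71.3 in MATa (-1.49), and RPS1B, its paralog, had 51.9 and 165 (-0.88). RPS21B (chrX:157970) had -0.74 in glucose, from 11.3 in MATalpha and 23.6 in MATa.

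**Figure D4:**
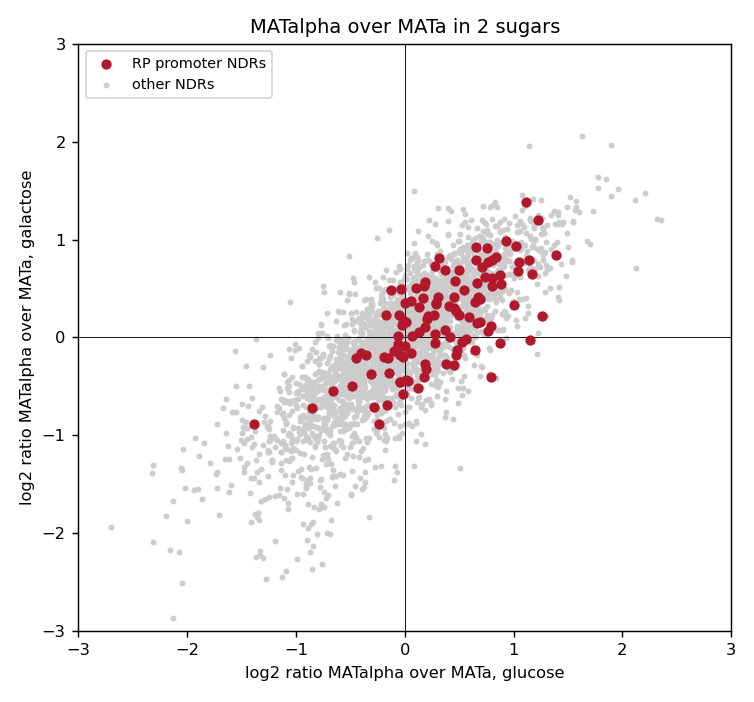
Log2 ratio of MATalpha over MATa in galactose (vertical axis) against the same in glucose (horizontal axis), for 112 RP promoter NDRs (red) and other NDRs (grey) beyond 30 kb of the viewpoint. The red points gather in the upper right, with 62 above 0 in both sugars, while RPL8B (-1.38 in glucose, -0.89 in galactose) and RPS24A (-0.85 and -0.72) lie at the lower left.

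Galactose was set over glucose within each mating type, which compares cells in which HO was induced with cells in which it was not. The sugars in which the cells grew also differed, and their effects were not separated from that of HO. In the MATa strains 127 members had a median of 0.13, with 11 at least 1.5-fold higher and 0 lower (5.08% and 4.15% of all 3663 NDRs). Those 11 were 8.66% of the members, and of the 54 with a base mean of at least 50 in both sugars, 1 was higher and 0 lower. No share of all NDRs is given at that minimum. In the MATalpha strains 113 members had a median of 0.00, with 0 higher and 2 lower (1.75% and 2.15% of all 2974 NDRs). Of the 112 members measured in both, 38 (33.9%) were above 0 in both mating types, against 26.5% of 2912 NDRs, and 0 were past 1.5-fold the same way in both. Pearson's r between the mating types was -0.10 over the members. The difference between the mating types has no test.

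RPS1A had a base mean of 71.3 in MATa galactose and 26.9 in MATa glucose, a log2 ratio of 0.97 after the median shift between these tables (0.41) was taken off. In MATalpha it had 14.1 in galactose and 8.97 in glucose, the second of which is below the minimum of 10. RPS21B (chrX:157970) had 54.3 and 23.6 in MATa, a log2 ratio of 0.76. The lowest in MATa were RPS27A and an NDR of RPL12B, both at -0.45, and RPS18A (chrIV:1358939) at -0.42. In MATalpha the lowest were RPL6A, with 13.3 in galactose and 24.8 in glucose (-0.72), RPS26A, with 19.3 and 35.2 (-0.71), and RPS9B at -0.54. The highest there were RPL12A at 0.55, RPP0, the central stalk protein gene, at 0.52, and RPL41A at 0.50.

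RPS14A is the RP gene within 30 kb of the array at TAF2. Its NDR 25.04 kb away had 143 in MATa galactose and 185 in MATa glucose, a log2 ratio of -0.78, and all NDRs within 30 kb had a median of -0.63 in that comparison. The second NDR of RPS14A, 24.5 kb away, had 12.5 and 16.4 (-0.76). In MATalpha the first had 151 in galactose and 172 in glucose (-0.06), with a median of -0.22 over all NDRs within 30 kb. Set as MATalpha over MATa, it had 0.15 in glucose and 0.85 in galactose.

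Methionine was the next condition, since TRP2 lies beside MET6, a gene that Met4 regulates with methionine. RP promoters were centred near 0, with a median of -0.02 over 128 members in -met over +met. None was 1.5-fold higher and 2 were lower (1.6% and 1.24% of all 3627 NDRs). The 2 were RPL20A, with 183 in -met and 304 in +met (log2 ratio -0.61), and RPS0A, with 364 in -met and 601 in +met (-0.60). RPL8B had 30.6 and 48.7 (-0.53). The highest were an NDR of RPL12B (chrIV:1300981), with 16.5 in -met and 12.9 in +met (0.45), RPS10B, with 28.6 and 22.8 (0.44), and RPL22B, with 12.6 and 10.5 (0.36). RPS8B, within 30 kb of the array at 23.5 kb from TRP2, had 28.0 in -met and 23.8 in +met (0.34). Its NDR is also upstream of AST2, and all 19 NDRs within 30 kb had a median of 0.16. Mitochondrial RP, ribosome biogenesis and translation factor genes had medians of 0.03, 0.05 and -0.001, with 0 of 54, 66 and 27 NDRs past 1.5-fold either way.

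**Figure D5:**
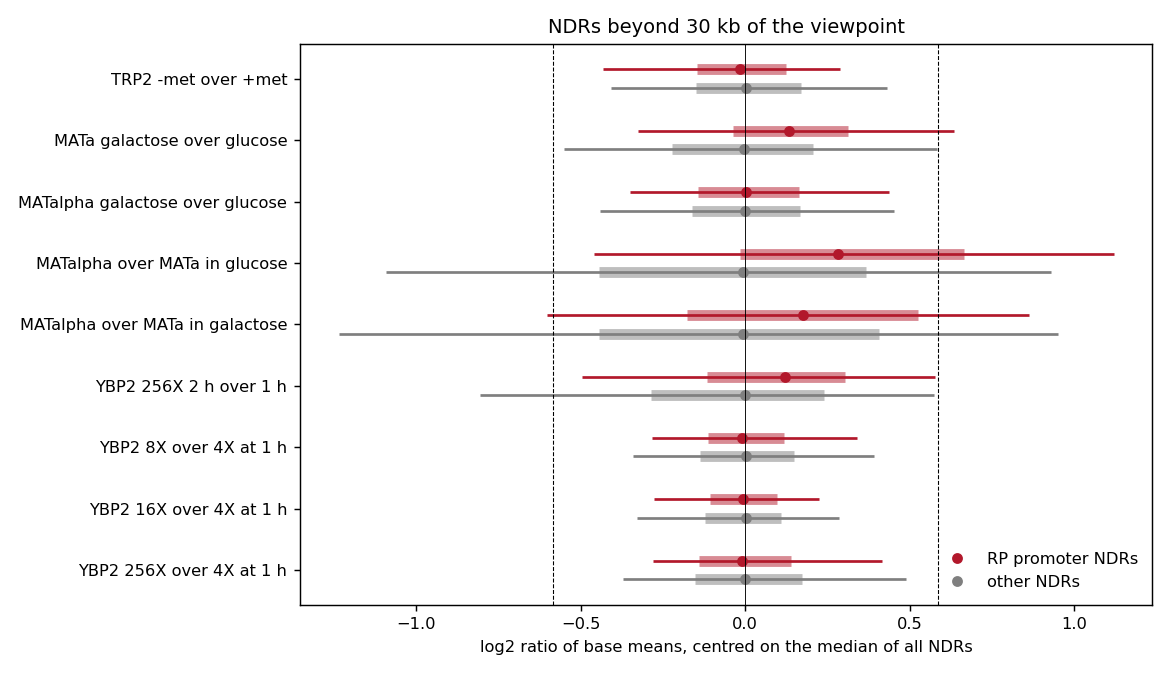
Log2 ratio of base means (horizontal axis) in each comparison of 2 tables (rows), for RP promoter NDRs (red, upper) and all other NDRs (grey, lower) beyond 30 kb of the viewpoint. Points are medians, thick bars quartiles, thin lines the 5th to 95th percentile and dashed lines 1.5-fold. The RP median is 0.28 and 0.18 in the MATalpha over MATa comparisons and near 0 in most others.

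Time and array size were compared at YBP2. With 256 copies, 2 h over 1 h gave the members a median of 0.12 over 136 NDRs, with 4 higher and 6 lower (4.65% and 10.8% of all 4176 NDRs). The 2 h and 1 h tables have separate controls. The median depended on the processing, with 0.068 once the trend over base mean was subtracted and 0.060 for the trend over GC sites. It was 0.26 when scaled to the summed base mean, where 19 were higher and 3 lower. No share of all NDRs is given for that scaling. RPL4A was lowest, with a base mean of 15.0 at 2 h and 26.4 at 1 h (log2 ratio -1.26), and RPL8B had 78.1 and 122 (-1.12). RPL14B followed at -0.73, with 30.8 and 36.9, and RPL36B (-0.72), RPS24A (-0.67) and RPS20 (-0.63) were the others. The 4 higher were RPL25, with 80.4 at 2 h and 35.9 at 1 h (0.66), RPL18B, with 77.5 and 34.8 (0.65), RPL40A, with 23.9 and 10.6 (0.62), and RPL42B (chrVIII:383246) at 0.60.

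At 1 h the members as a group were centred near 0, with a median of -0.01 for 8, 16 and 256 copies, each over 4 copies. These 3 comparisons share the table of 4 copies and the control of 1 h. With 8 copies 3 of 125 members were higher and 0 lower (1.7% and 0.374% of all 3476 NDRs), with 16 copies 0 and 0 of 124 (0.0288% and 0.403%), and with 256 copies 3 and 0 of 125 (3.15% and 0.975% of all 3588). RPL42B (chrVIII:382784) had base means of 11.2, 21.5, 18.9 and 26.5 with 4, 8, 16 and 256 copies, with log2 ratios of 0.94, 0.56 and 0.61 over 4 copies. RPL4A had 17.1, 29.9, 22.5 and 26.4, and RPL36B 64.7, 107, 70.1 and 133. In both, the value with 8 copies was above the one with 16. RPL24B (chrVII:788207) had 178, 184, 179 and 457, a log2 ratio of 0.79 with 256 copies, and its second NDR (chrVII:788724) had 109, 107, 112 and 263, a log2 ratio of 0.70. Both RPL24B NDRs were near level from 4 to 16 copies and high with 256, and the first lies 397 kb from YBP2 on the same chromosome. With 256 copies at 2 h, their log2 ratios over the other viewpoints were only 0.11 and 0.16. The first had a scaled base mean of 628 there, against 554, 585 and 639 in the others (lowest, median and highest). The cause of the rise with 256 copies at 1 h was not tested. The lowest were RPL11A with 8 and with 256 copies (-0.39 and -0.48) and an NDR of RPL12B with 16 copies (-0.49). RPL7A, 24.98 kb from YBP2, had 46.3, 46.1, 46.1 and 69.8, with log2 ratios of 0.05, -0.15 and 0.02.

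Over all 21 tables the members varied about as much as other NDRs. Of the 142, 111 had a base mean of at least 10 in every table. Their SD over the tables had a median of 0.24 on the log2 scale, against 0.26 for all 2789 such NDRs. RPS4B varied least, with an SD of 0.069, and RPL8B most, with 0.58, followed by RPL20A with 0.49. Because NDRs under 10 were left out, these counts do not cover every member. The non-member NDRs whose profile over the 21 tables was most like the members' median were those of WBP1 (r = 0.93), MCT1/ODC2 (0.92), MET7 (0.91), USV1 (0.91) and TRE2/CDC31/HNT3 (0.91), among 2678 candidates, as a description over tables that share libraries.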

How the data were processed

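The series has 66 libraries in 33 groups of 2, enriched for methylated cytosine and sequenced. Per the methods and the submitters' processing notes, the authors trimmed reads with fastp 0.23.2, aligned them to sacCer3 with BWA 0.7.17, removed duplicates with Picard, counted fragments per NDR with featureCounts 2.0.3 and normalized with DESeq2 1.38.0. The deposited signal used here is the base mean, the authors' mean of normalized counts over the 4 libraries of a table. The tables also hold the authors' own fold changes, standard errors, Wald statistics and p-values of targeted against control libraries, which were not used. The Mlp1 fusion, free M.CviPI and MLP1/2 mutant libraries were not analysed here.

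Members, start codons, viewpoint gene midpoints and sequences were taken from RefSeq R64, the assembly of sacCer3, in whose chromosomes all NDR starts lie. NDR starts were used as the tables give them. Log2 ratios used a pseudocount of 1, a minimum base mean of 10 and centring on the median NDR beyond 30 kb. Calls were 1.5-fold, with no test, since the base mean carries no replicate spread, and the pseudocount understates changes of low NDRs. Names were taken from the 3 highest and 3 lowest members of each comparison and the 5 highest and 5 lowest in level. Features chosen after their values were seen are the paralog pairs, the members counted past 1.5-fold and RPS24A in the SHC1 table. Alternatives were another scaling, other minimums, pseudocounts, folds and member limits, and removal of trends. The ratio step was tested on simulated data. Members and lists were chosen with earlier results of these data known. Some members of these sets are not reported here. Python 3 with pandas and numpy was used.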

Additional observations from a re-analysis of the deposited data

How the results depend on the processing

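The members' median was called moved where it differed from the reported value by more than its SD over the 11 viewpoint tables at 2 h, which was 0.016 on the log2 scale and 0.53 percentile points. Scaled to the summed base mean in place of the median NDR, the median was 0.037 for TRP2 -met over +met, 0.10 for MATa galactose over glucose, 0.019 for MATalpha galactose over glucose, 0.24 for MATalpha over MATa in glucose, 0.20 for MATalpha over MATa in galactose, 0.26 for YBP2 256X 2 h over 1 h, 0.015 for YBP2 8X over 4X at 1 h, 0.0087 for YBP2 16X over 4X at 1 h and -0.20 for YBP2 256X over 4X at 1 h. With the trend over base mean subtracted, the median was 0.00048 for TRP2 -met over +met, 0.30 for MATalpha over MATa in glucose, 0.068 for YBP2 256X 2 h over 1 h, 0.0090 for YBP2 8X over 4X at 1 h, -0.039 for YBP2 16X over 4X at 1 h and -0.026 for YBP2 256X over 4X at 1 h. With members up to 500 bases only, the median was -0.038 for TRP2 -met over +met, 0.16 for MATa galactose over glucose, -0.015 for MATalpha galactose over glucose and 0.013 for YBP2 256X over 4X at 1 h. With a minimum base mean of 50, the median was 0.10 for MATa galactose over glucose, 0.12 for MATalpha over MATa in glucose, 0.12 for MATalpha over MATa in galactose, 0.018 for YBP2 8X over 4X at 1 h, -0.059 for YBP2 16X over 4X at 1 h and -0.049 for YBP2 256X over 4X at 1 h. With members of RP genes alone, the median was 0.15 for MATa galactose over glucose, 0.022 for MATalpha galactose over glucose, 0.20 for MATalpha over MATa in glucose and -0.027 for YBP2 16X over 4X at 1 h. With no minimum base mean, the median was 0.031 for MATalpha galactose over glucose, 0.25 for MATalpha over MATa in glucose, 0.25 for MATalpha over MATa in galactose and -0.031 for YBP2 8X over 4X at 1 h. With the trend over GC sites subtracted, the median was -0.022 for MATalpha galactose over glucose, 0.26 for MATalpha over MATa in glucose, 0.20 for MATalpha over MATa in galactose and 0.060 for YBP2 256X 2 h over 1 h. With a pseudocount of 5, the median was 0.25 for MATalpha over MATa in glucose and 0.15 for MATalpha over MATa in galactose. Per GC site the members' middle percentile was 67.1, against 71.3 as reported. The medians of the MATalpha over MATa comparisons, of MATa galactose over glucose and of 2 h over 1 h kept their sign under all of these, while medians within 0.02 of 0 did not all do so. The cause of the moves was not tested. Scaling to the summed base mean put the median of all NDRs at 0.14 in 2 h over 1 h and at -0.19 in 256 over 4 copies. At 1.5-fold the members higher in MATalpha over MATa in glucose numbered 7 to 43 over the settings, and those lower 1 to 12. At 1.5-fold the members higher in MATalpha over MATa in galactose numbered 4 to 38 over the settings, and those lower 3 to 14. At 1.5-fold the members higher in MATa galactose over glucose numbered 1 to 14 over the settings, and those lower 0 to 1. For MATalpha over MATa in glucose a minimum of 50 gave 7 higher of 48 members. For MATalpha over MATa in galactose a minimum of 50 gave 4 higher of 53 members. For MATa galactose over glucose a minimum of 50 gave 1 higher of 54 members. Shares of all NDRs are given for the main settings alone, so these counts and ranges have no background. No paired analysis was possible because the tables hold no value per library, and for the same reason leaving out a replicate was not run.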
